A study of Mus musculus with 5 samples.

Results

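Synaptic vesicle and exocytosis genes were examined in 5 cerebellar tumours (medulloblastoma) of Math1-Cre;Gli2A mice. The members were taken by symbol: synaptotagmins, synapsins, synaptophysin and its relatives, SV2 proteins, Rab3 GTPases, VAMPs, syntaxins, SNAP proteins, complexins, the syntaxin-binding proteins of the Stxbp genes, RIM and Munc13 proteins, Bassoon and Piccolo. This gave 74 of the 17739 genes in the table. All 5 libraries belong to 1 group. Math1-Cre and R26;Gli2A mice had been crossed, their offspring were kept on a doxycycline (DOX) diet from conception (E0), and the labels call GLI2 active in each tumour. Math1 (Atoh1) drives Cre in granule neuron progenitors. Tumour cells were dissociated with papain and RNA was taken at once, with no sort of cells described in the labels. The libraries are called here tumours 1, 5, 8, 14 and 15, after their titles. Whether each number is a separate animal is not said. No normal cerebellum or tumour without active GLI2 is among the samples analysed, so the data show how much of each gene these tumours held and how far the tumours differed, and every SD measures the spread between 5 libraries, part of which may be technical.

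As background, a neuron stores transmitter in synaptic vesicles that carry synaptophysin, SV2 and synapsins. VAMP2 on the vesicle binds syntaxin and SNAP-25 on the plasma membrane, and the zippering of this SNARE complex fuses the membranes. Munc13, RIM and complexins control the assembly, Bassoon and Piccolo build the scaffold of the active zone, and synaptotagmins sense the calcium that triggers release. Related SNAREs serve fusion at endosomes, the Golgi and the plasma membrane of every cell. Granule neurons, the cells that granule neuron progenitors give rise to, use this machinery to release glutamate onto Purkinje cells.

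The synapsin genes Syn1 and Syn2, close relatives, had their highest values in different tumours, and synaptoporin (Synpr) had the widest range of any member. Their upstream sequences are therefore shown: the 250 bases before the start in RefSeq on GRCm38.p6, 5′ to 3′ on the strand of the gene. Where RefSeq lists more than 1 start, the window farthest upstream is given. Syn1 lies on the minus strand at chrX:20920919-20921168, Syn2 on the plus strand at chr6:115134652-115134901 and Synpr on the plus strand at chr14:13284530-13284779.
Syn1: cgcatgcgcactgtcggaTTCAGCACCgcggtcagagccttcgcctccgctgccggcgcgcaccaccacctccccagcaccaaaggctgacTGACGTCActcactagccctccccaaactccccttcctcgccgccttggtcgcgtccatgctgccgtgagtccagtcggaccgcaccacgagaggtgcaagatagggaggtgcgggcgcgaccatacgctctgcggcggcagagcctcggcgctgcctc
Syn2: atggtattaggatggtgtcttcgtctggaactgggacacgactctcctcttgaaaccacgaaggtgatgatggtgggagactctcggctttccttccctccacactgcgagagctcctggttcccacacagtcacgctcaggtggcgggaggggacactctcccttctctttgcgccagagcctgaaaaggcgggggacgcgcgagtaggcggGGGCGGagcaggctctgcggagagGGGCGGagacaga
Synpr: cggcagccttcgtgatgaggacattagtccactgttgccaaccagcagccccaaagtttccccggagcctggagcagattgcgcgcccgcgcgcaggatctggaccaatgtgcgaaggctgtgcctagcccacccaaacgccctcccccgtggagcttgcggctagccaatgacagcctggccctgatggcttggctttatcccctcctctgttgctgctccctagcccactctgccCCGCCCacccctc
Capitals mark matches, on either strand, to 4 motifs that do not overlap in these windows: TTCAGCACC, the left part of RE1, the element bound by the neuronal gene repressor REST; TGACGTCA, the cAMP response element; GGGCGG, the GC box; and GACCACCCA, the GLI site. Counted back from the start, the RE1 part of Syn1 begins at position -232 and its cAMP response element at -159, and Syn2 holds 2 GC boxes and Synpr 1. The G and C content of the windows was 68% for Syn1, 61.2% for Syn2 and 64% for Synpr. Of the 74 members, 60 had at least 1 promoter entry, with 78 windows in all. The RE1 part was found in 1 of the 78 windows, against 0.301% of all 32851 windows. The cAMP response element was found in 2 (Syn1 and Stxbp3), or 2.56% of the members' windows and 1.55% of all windows, the GC box in 48, or 61.5% and 32.7%, and the GLI site in 0, against 0.225% of all windows. All 32851 windows belong to 27025 symbols, more than the 17739 genes measured here. The share among expressed genes alone was not counted. A match describes the letters of the window and is not evidence of binding.

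Most of the release machinery was present in the tumours. Of the 74 members, 65 had a mean of at least 5 on the deposited log2 scale and 28 a mean of at least 10. Of all 17739 genes, 13691 and 5209 did. The deposited values are read as regularised-log values, which take out library size but keep the effect of transcript length. To set genes beside each other, log2 of the exon length in kb was therefore subtracted, and such values are called length-corrected levels below. The median length-corrected level was 7.17 for the 65 members and 7.17 for all 13691 genes with a mean of at least 5, so the members as a whole lay at the level of an ordinary expressed gene. They spanned a wide range. The complexin gene Cplx2 had the highest length-corrected level, 11.50, and Vamp2 at 10.90, Syt11 at 10.85 and Rab3a at 10.62 were also among the 5 highest. With the longest annotated transcript as the length, all of these were again among the 5 highest, with Vamp2 first. The 9 members with a mean below 5 were Rims4, Sv2c, Syt17, Vamp5, Stx11, Syt10, Cplx3, Syt8 and Stx19. Their deposited means lay between 0.87 and 4.90.

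**Figure D1:**
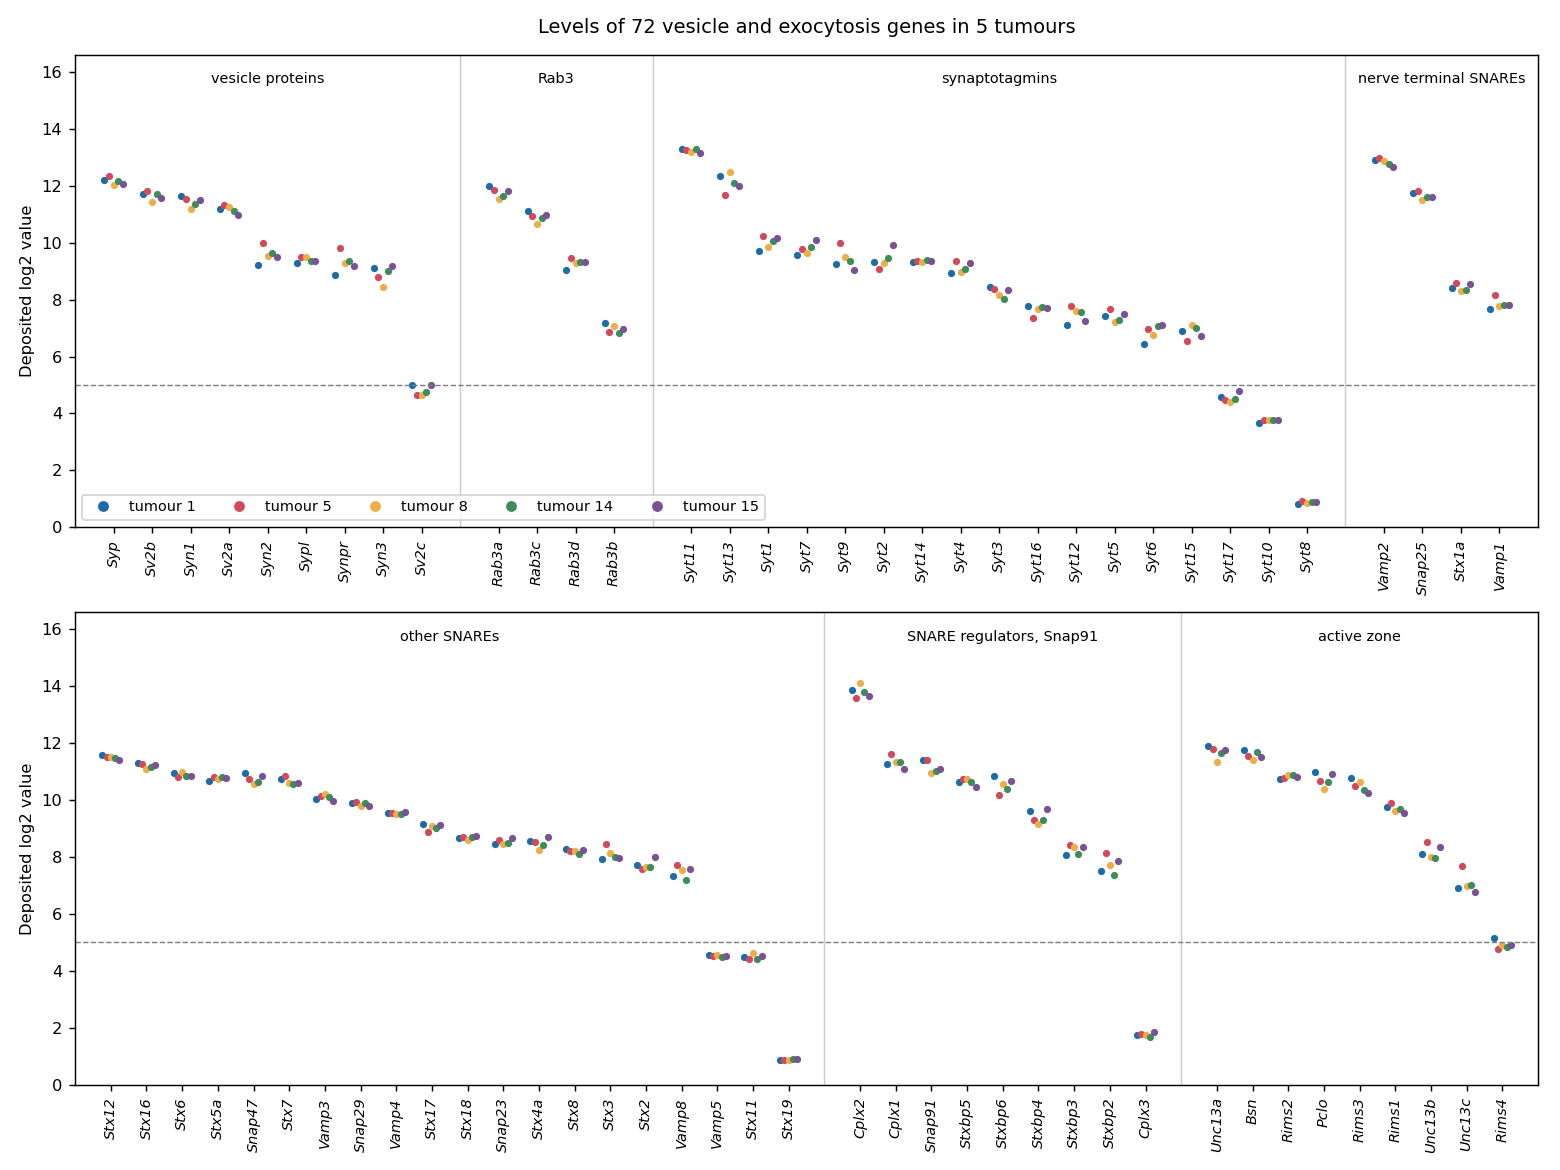
Deposited log2 value (vertical axis) of 72 of the 74 genes (horizontal axis) in each tumour, 1 coloured point per tumour, genes grouped by role and ordered by mean; the dashed line is the mean of 5 used as the filter. Points of 1 gene lie close together, from Cplx2 at 13.80 to Stx19 at 0.87.

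No member differed strongly between tumours. The range from the lowest to the highest tumour exceeded 2-fold for 0 of the 65 members, whereas 3.79% of all 13691 genes passed that limit. It exceeded 1.5-fold for 12 of 65 (18.5%), beside 14.7% of all genes. The median range was 1.35-fold for the members and 1.21-fold for all genes. The median range of the members was the wider, and none of them reached the 2-fold limit. The 12 members past 1.5-fold were Synpr (1.93-fold), Syt9 (1.92-fold), Unc13c (1.88-fold), Syt2 (1.78-fold), Syt13 (1.74-fold), Syn2 (1.71-fold), Stxbp2 (1.69-fold), Syn3 (1.67-fold), Stxbp6 (1.59-fold), Syt6 (1.59-fold), Syt12 (1.58-fold) and Pclo (1.51-fold). Without tumour 5, 4 of the 65 members (6.15%) passed 1.5-fold, beside 8.86% of all genes. Without tumour 1, 7 (10.8%) did, beside 12.2%. The members' share was thus below that of all genes when either tumour was left out. The labels give 1 group, so no test between groups could be made, and these counts are descriptions. Because the regularised log shrinks low genes towards their mean, a range at a low gene is understated.

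The tumours differed in which members they held at the extremes. Of the 65 members, 28 (43.1%) were highest in tumour 5, beside 24.1% of all genes, and 20 (30.8%) were highest in tumour 1, beside 20.2%. Tumour 8 held the lowest value for 22 members (33.8%), beside 22.6% of all genes, and tumour 1 for 16 (24.6%), beside 16.9%. Tumour 8 was highest for 5 members and tumour 14 for 2, beside 18.5% and 15.8% of all genes, and tumour 15 for 10, beside 21.4%. The lowest value lay in tumour 15 for 11 members, beside 22.9%, in tumour 5 for 9, beside 24.6%, and in tumour 14 for 7, beside 13%. Tumour 5 was already known to stand apart in these data, so its count is no independent sign.

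**Figure D2:**
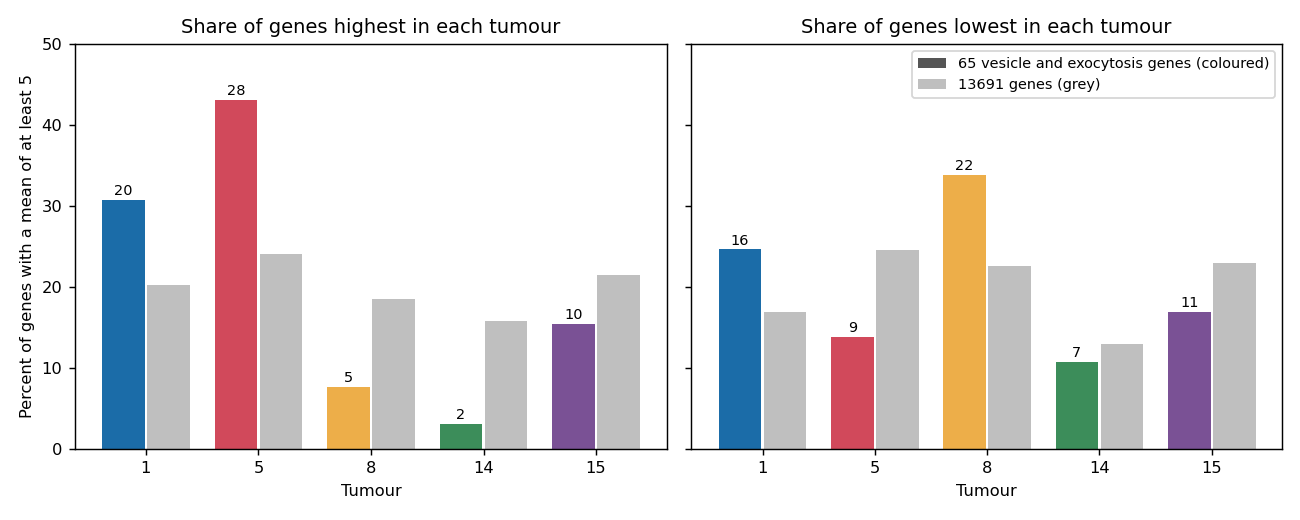
Percent of genes (vertical axis) whose highest value (left panel) or lowest value (right panel) falls in each tumour (horizontal axis): coloured bars are the 65 vesicle and exocytosis genes, with their number above, and grey bars all 13691 genes with a mean of at least 5. Tumour 5 is highest for 28 of the 65 and tumour 8 lowest for 22.

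Some orders of the tumours recurred, and were picked after the values were seen. In the first, 11 members (16.9%) were highest in tumour 1 and lowest in tumour 8, an order shown by 6.78% of all genes. Among them were Bsn, Pclo, Rab3a, Rab3c, Snap47, Snap91, Stx16, Syn1 and Unc13a, and the ranges of the 11 ran from 1.13-fold to 1.51-fold. In the second, another 11 members (16.9%) were highest in tumour 5 and lowest in tumour 1, beside 5.67% of all genes. These were Rab3d, Stx3, Stx5a, Stxbp3, Syn2, Synpr, Sypl, Syt1, Syt12, Syt4 and Vamp1, with ranges from 1.12-fold to 1.93-fold. By the way the sets were formed, tumour 1 held the highest values of the first and the lowest of the second. A further 6 members (Snap25, Snap29, Stx1a, Sv2b, Syp and Syt5, or 9.23%) were highest in tumour 5 and lowest in tumour 8, beside 6.24% of all genes. Another 7 (Cplx1, Rims1, Stxbp5, Sv2a, Syt9, Unc13c and Vamp2, or 10.8%) were highest in tumour 5 and lowest in tumour 15, beside 8.07%. For these last sets the share lay closer to that of all genes than for the first and second sets.

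**Figure D3:**
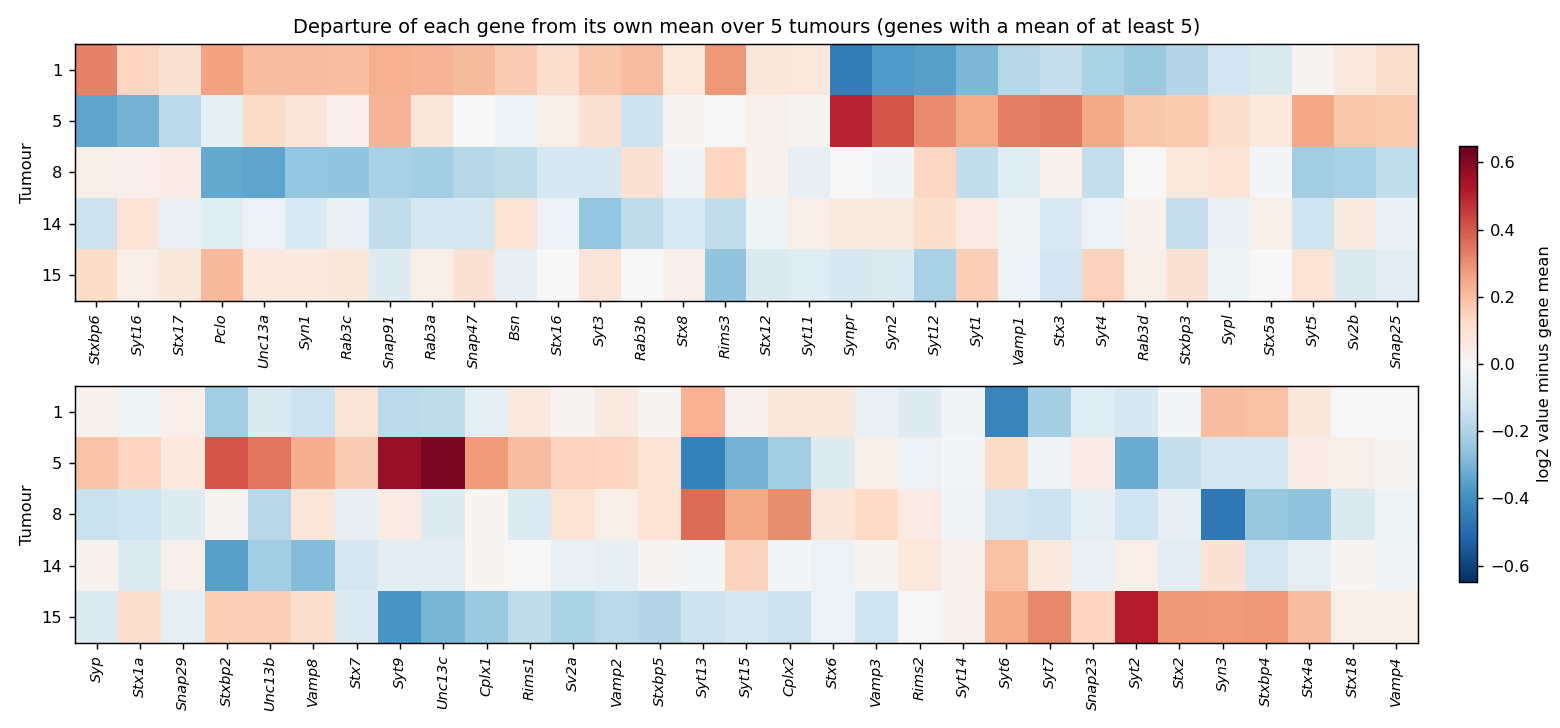
Departure of 63 of the 65 genes (horizontal axis, in 2 rows of panels) from the gene's own mean over the tumours, in log2 units (red above, blue below), for each tumour (vertical axis); genes are ordered by the tumour in which they are highest, then by the tumour in which they are lowest. The block from Pclo to Stx16 is red in tumour 1 and blue in tumour 8, and the block from Synpr to Stx5a is red in tumour 5 and blue in tumour 1.

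Markers of other cells moved between the same tumours. Of 10 markers of mature granule neurons that are not vesicle genes, 7 were highest in tumour 5 and 3 (Cbln1, Etv1 and Rbfox3) in tumour 15. Etv1 was lowest in tumour 5. The median of the 10 had the values 8.25, 8.87, 8.36, 8.32 and 8.17 in tumours 1, 5, 8, 14 and 15. Of 8 oligodendrocyte markers, 8 peaked in tumour 5 and 7 were lowest in tumour 1, with medians of 10.47, 11.63, 11.42, 10.95 and 10.67 in the same order. Tumour 5 also held the peak of 8 of 8 microglia and macrophage markers and of 7 of 8 choroid plexus markers. Summed on the linear scale and returned to log2, the marker levels ran from 13.81 to 14.19 for mature granule neurons, 14.52 to 15.91 for oligodendrocytes, 12.84 to 13.68 for microglia, 13.36 to 14.87 for choroid plexus and 9.50 to 10.04 for Purkinje cells and interneurons. For mature granule neurons the sum was lowest in tumour 8 and highest in tumour 5. It reached 14.16 in tumour 15, which was lowest by the median. All 8 progenitor markers were present, at a summed level of 16.22 to 16.35, with medians between 12.31 and 12.68. Of 8 markers of dividing cells, 6 were highest in tumour 14 and 5 lowest in tumour 5. No marker of these lists had a mean below 4.59. Tumour 8 also stood apart in Xist, which is transcribed from the inactive X chromosome, at 12.89 against 7.29 to 8.10 elsewhere. Ddx3y, a gene of the Y chromosome, was 6.61 in tumour 8 against 9.78 to 10.03 elsewhere. Tumour 8 thus differed from the others in sex-linked genes, and the part of this in its other values was not tested. The part of these markers in the results below was not tested, and in bulk RNA fewer cells of a type and less RNA per cell cannot be told apart.

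Among the proteins of the vesicle membrane, synaptophysin and synapsin 1 had the highest length-corrected levels. Syp, which encodes synaptophysin, the most abundant membrane protein of the vesicle, had deposited log2 values of 12.19, 12.34, 12.02, 12.18 and 12.07 in tumours 1, 5, 8, 14 and 15, the order kept for all values below. Its mean was 12.16 ± 0.13 (SD, n = 5), with tumour 5 highest and tumour 8 lowest. Its relative Sypl, expressed in many tissues, had values of 9.27, 9.51, 9.48, 9.36 and 9.37, lowest in tumour 1. Length-corrected, Syp exceeded Sypl by 3.44 ± 0.15, or 10.9-fold, in 5 of 5 tumours. Synaptoporin (Synpr), a further relative found in a subset of synapses, had 8.85, 9.80, 9.30, 9.36 and 9.19. Tumour 5 stood above the others and tumour 1 below them, a span of 1.93-fold, the largest of all members.

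The synapsins, which tether vesicles in the reserve pool, split between the tumours. Syn1 (chromosome X) had values of 11.64, 11.52, 11.19, 11.34 and 11.51, highest in tumour 1 and lowest in tumour 8. Syn2 (chromosome 6) had 9.20, 9.98, 9.55, 9.63 and 9.48, highest in tumour 5 and lowest in tumour 1. The tumour with most Syn1 was thus the one with least Syn2. The length-corrected difference, Syn1 minus Syn2, was 3.53, 2.64, 2.73, 2.81 and 3.12, with a mean of 2.97 ± 0.37 (7.81-fold). Its size depended on the length used, and the mean was 2.12 with the longest transcript. Syn1 lay above Syn2 in 5 of 5 tumours, by the most in tumour 1 and the least in tumour 5. For Syn3 the values were 9.10, 8.79, 8.44, 8.997 and 9.18, with tumour 8 lowest. The exons of Syn3 overlap those of Timp3, a gene on the opposite strand, by 1733 bases. Timp3 averaged 12.09 ± 0.15 against 8.90 ± 0.30 for Syn3 on the deposited scale, and the strand setting of the counting is not given in the sources used here, so reads of Timp3 may count towards Syn3.

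The SV2 genes encode vesicle glycoproteins that act in priming. Sv2a had values of 11.20, 11.33, 11.27, 11.13 and 10.97 and Sv2b 11.71, 11.83, 11.44, 11.71 and 11.56. Sv2a was highest in tumour 5 and lowest in tumour 15, and Sv2b highest in tumour 5 and lowest in tumour 8. Their order depended on the length used: Sv2a minus Sv2b was 0.38 ± 0.17 with all exons as the length, and -0.12 with the longest transcript, when it was above 0 in 1 of 5 tumours. Sv2c, at 5.002, 4.66, 4.65, 4.74 and 5.01, had a mean of 4.81 ± 0.18.

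Rab3 GTPases guide vesicles to the release site through RIM. Rab3a, the main isoform of the brain, had values of 11.99, 11.84, 11.55, 11.66 and 11.81. Tumour 1 was highest and tumour 8 lowest, as for Rab3c, whose mean was 10.91 ± 0.17. Rab3d, best known from secretory granules of exocrine cells, had 9.05, 9.46, 9.29, 9.31 and 9.33, with tumour 1 lowest. Length-corrected, Rab3a exceeded Rab3d by 3.40 ± 0.27, or 10.5-fold. Rab3b had values of 7.19, 6.85, 7.09, 6.82 and 6.98, the lowest length-corrected level of the 4. Rab3a made up 81.9% ± 1.25 of the family's summed length-corrected level on the linear scale (SD, n = 5).

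The synaptotagmins were led by members that do not serve as the fast calcium sensor. Syt11, which lacks calcium binding and acts in vesicle trafficking, had values of 13.30, 13.25, 13.18, 13.27 and 13.15. All 5 tumours lay within 1.11-fold of each other. Syt13, another member without calcium binding, had 12.34, 11.68, 12.48, 12.11 and 11.98, with tumour 8 highest and tumour 5 lowest. Together Syt11 and Syt13 stood at 45.7% ± 2.39 and 29.6% ± 5.07 of the summed length-corrected level of the 17 synaptotagmins. Syt1, the fast sensor of forebrain synapses, took 3.09% ± 0.592, Syt2, the fast sensor of many hindbrain synapses, 2.26% ± 0.596, and Syt9, a further fast sensor, 4.42% ± 1.29. The order of Syt1 and Syt9 depended on the length used. With the longest transcript, Syt1 took 4.98%, Syt2 2.34% and Syt9 4.29%.

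Syt1 and Syt2 moved in different ways. Syt1 had 9.71, 10.24, 9.84, 10.05 and 10.16, highest in tumour 5 and lowest in tumour 1. For Syt2 the values were 9.31, 9.09, 9.28, 9.46 and 9.92, highest in tumour 15 and lowest in tumour 5. The length-corrected difference, Syt1 minus Syt2, was 0.27, 1.02, 0.43, 0.47 and 0.11, a mean of 0.46 ± 0.35. Syt1 was above Syt2 in 5 of 5 tumours, by 0.11 in tumour 15 and 1.02 in tumour 5. Syt9 had 9.26, 9.99, 9.48, 9.36 and 9.05, with tumour 5 highest and tumour 15 lowest, so that its span of 1.92-fold set the same tumours apart as Syt2 in the opposite direction.

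The other synaptotagmins include slower calcium sensors and less studied members. Syt7, a slow sensor of asynchronous release and lysosome fusion, averaged 9.78 ± 0.21 and was highest in tumour 15. Syt4, known from dense-core vesicles, averaged 9.13 ± 0.19 and was highest in tumour 5. Syt12 had values of 7.10, 7.76, 7.59, 7.57 and 7.24 and Syt6 had 6.43, 6.98, 6.74, 7.06 and 7.10. Both were lowest in tumour 1, with spans of 1.58-fold and 1.59-fold. Syt14 varied least, with a mean of 9.35 ± 0.02 and a span of 1.03-fold. The means of Syt3, Syt5, Syt15 and Syt16 lay between 6.85 and 8.26. Syt8, at 0.83, 0.93, 0.86, 0.88 and 0.88, was among the lowest genes of the table.

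Of the SNAREs of nerve terminals, Vamp2 led and Vamp1 was the lowest. Vamp2, the vesicle SNARE synaptobrevin 2, had values of 12.89, 12.97, 12.87, 12.77 and 12.66, highest in tumour 5 and lowest in tumour 15. Vamp1, its relative in spinal and hindbrain terminals, had 7.66, 8.17, 7.76, 7.82 and 7.81, with tumour 5 above the others. Vamp3, cellubrevin, which serves constitutive and recycling traffic, had 10.04, 10.13, 10.21, 10.10 and 9.96. Vamp2 exceeded Vamp3 by a length-corrected 2.35 ± 0.10, or 5.08-fold, and the 5 differences lay between 2.26 and 2.45. Of the summed length-corrected level of the 6 VAMP genes in the table, Vamp2 made up 74.7% ± 1.23 and Vamp1 0.887% ± 0.104.

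On the length-corrected scale the target SNAREs on the plasma membrane were lower than Vamp2. Snap25 had values of 11.76, 11.83, 11.50, 11.62 and 11.59, highest in tumour 5 and lowest in tumour 8. Snap23, its counterpart outside neurons, had 8.45, 8.58, 8.47, 8.48 and 8.67, highest in tumour 15. Snap25 exceeded Snap23 by a length-corrected 2.47 ± 0.16, or 5.53-fold, in 5 of 5 tumours. Snap47 had deposited values of 10.94, 10.74, 10.55, 10.63 and 10.83, below Snap25 in 5 of 5 tumours. The order turned round once length was taken out. Snap47 then held 43.6% ± 2.18 of the summed length-corrected level of the 4 SNAP genes and Snap25 32.3% ± 1.54, and Snap47 was also the higher when the longest transcript was the length. Snap47 is a SNARE of broad tissue distribution whose exons overlap Jmjd4 on the opposite strand by 307 bases.

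Stx1a, a syntaxin of the nerve terminal's plasma membrane, had values of 8.41, 8.57, 8.31, 8.35 and 8.55, highest in tumour 5 and lowest in tumour 8. Its length-corrected level, 7.02, stood below those of its partners Snap25 (8.90) and Vamp2 (10.90).

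Another 20 genes encode SNAREs of the plasma membrane, endosomes, the Golgi and the endoplasmic reticulum. For the 17 of them with a mean of at least 5, the median range was 1.17-fold and the largest 1.43-fold, beside a median of 1.21-fold for all genes. The limit of 1.5-fold was passed by 0 of the 17, beside 14.7% of all genes. Stx12, an endosomal syntaxin, had 11.56, 11.51, 11.51, 11.46 and 11.39 and the highest length-corrected level of the group, 9.82. Snap47 followed at 9.33, Stx16 of the trans-Golgi network had 9.22, Vamp3 8.56, Stx7 of late endosomes 8.50 and Stx5a of the Golgi 8.22. Vamp4, Snap29, Stx6, Stx8, Stx17 and Stx18 each spanned at most 1.21-fold. Wider spans fell to Vamp8 (1.43-fold), a SNARE of secretory and blood cells, and Stx3 (1.41-fold), of apical membranes, both highest in tumour 5. Stx4a (1.37-fold) and Stx2 (1.35-fold), of the plasma membrane, were highest in tumour 15. Stx19 was listed at 0.86, 0.86, 0.86, 0.88 and 0.91, and Stx11 and Vamp5 averaged 4.49 and 4.52.

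Complexins clamp and then promote fusion of the assembled SNARE complex. Cplx2 had values of 13.87, 13.57, 14.10, 13.78 and 13.66, highest in tumour 8 and lowest in tumour 5. Cplx1 had 11.26, 11.60, 11.34, 11.34 and 11.08, highest in tumour 5 and lowest in tumour 15. In tumour 5 Cplx2 was at its lowest and Cplx1 at its highest. Cplx2 minus Cplx1, length-corrected, was 1.44, 0.80, 1.59, 1.27 and 1.41, a mean of 1.30 ± 0.30. Cplx2 therefore made up 71% ± 4.46 of the complexins, with 63.5% in tumour 5 and 75% in tumour 8. Cplx3, known from ribbon synapses of the retina, had 1.73, 1.78, 1.73, 1.66 and 1.86.

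Among the syntaxin-binding proteins, Stxbp2, best known from secretion by blood and epithelial cells, had values of 7.49, 8.12, 7.73, 7.36 and 7.87, highest in tumour 5 and lowest in tumour 14. Stxbp3 averaged 8.26 ± 0.16.

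The remaining regulators included the tomosyn gene Stxbp5, an inhibitor of SNARE assembly, at 10.63 ± 0.11, and Stxbp4 at 9.41 ± 0.22, which was highest in tumour 15. Stxbp6 (amisyn), which binds SNAREs through a VAMP-like domain, had values of 10.86, 10.19, 10.57, 10.39 and 10.65, with tumour 1 highest and tumour 5 lowest. Snap91, encoding the clathrin adaptor AP180 that retrieves VAMP2 after fusion, had values of 11.40, 11.39, 10.95, 11.005 and 11.08, higher in tumours 1 and 5 than in the other 3.

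**Figure D4:**
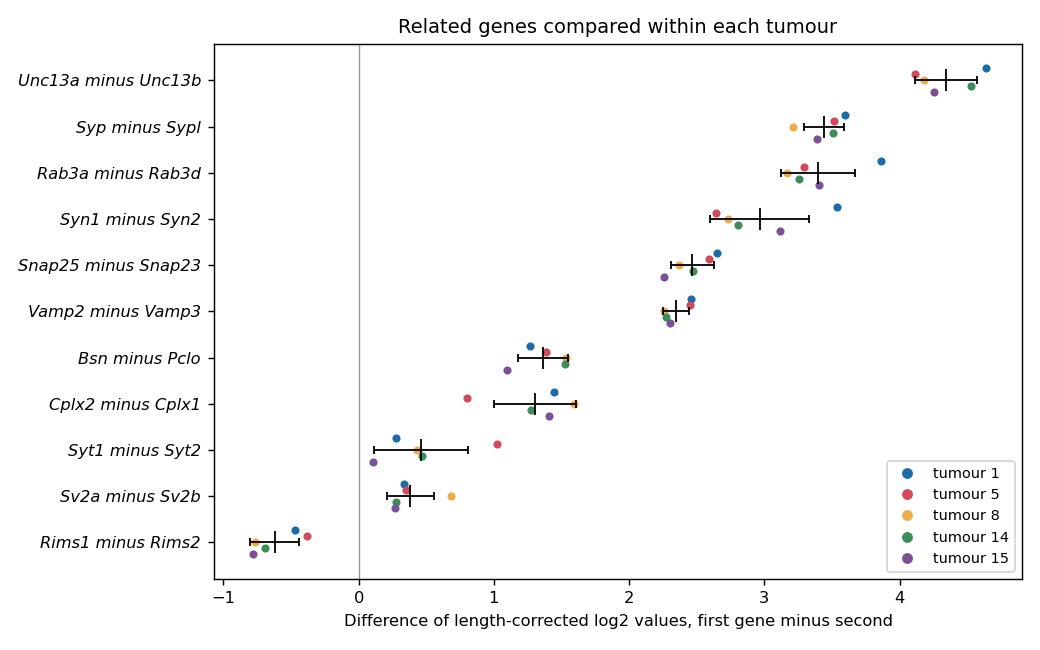
Difference of length-corrected log2 values (horizontal axis) between the genes of each of 11 pairs (vertical axis), first gene minus second, 1 coloured point per tumour, with the mean and SD (n = 5) in black. All 5 points lie on the same side of 0 for each pair; the Sv2a and Sv2b order turns round when other lengths are used.

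At the active zone, Unc13a had the highest length-corrected level of the Munc13 genes, which prime vesicles for fusion. Unc13a, encoding Munc13-1, had values of 11.88, 11.80, 11.34, 11.64 and 11.74, highest in tumour 1 and lowest in tumour 8. Unc13b, encoding Munc13-2, had 8.09, 8.54, 8.01, 7.96 and 8.34, highest in tumour 5. Unc13a exceeded Unc13b by a length-corrected 4.34 ± 0.23, or 20.3-fold, and made up 90.1% ± 1.79 of the 3 Munc13 genes. Unc13c, encoding Munc13-3, the isoform known from mature granule cells of the cerebellum, had 6.91, 7.69, 6.99, 7.001 and 6.77. Tumour 5 stood apart at 7.69, and the other 4 lay between 6.77 and 7.001. The exons of Unc13a overlap Colgalt1 on the opposite strand by 495 bases.

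RIM proteins link Rab3, Munc13 and calcium channels. Rims1 had values of 9.76, 9.89, 9.61, 9.69 and 9.53 and Rims2 had 10.73, 10.77, 10.87, 10.88 and 10.81. Rims2 was the steadier, within 1.11-fold. Rims1 minus Rims2, length-corrected, was -0.62 ± 0.18, so Rims2 was higher in 5 of 5 tumours. With the longest transcript as the length, the mean was -1.54. Rims3, a short form, averaged 10.50 ± 0.22 with tumour 1 highest and tumour 15 lowest, and Rims4 had 5.13, 4.76, 4.91, 4.82 and 4.91.

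The scaffold genes Bsn and Pclo shared their extremes. Bassoon (Bsn) had values of 11.74, 11.54, 11.42, 11.67 and 11.53 and Piccolo (Pclo) 10.97, 10.65, 10.38, 10.63 and 10.92. For both, tumour 1 was highest and tumour 8 lowest. Bsn minus Pclo, length-corrected, was 1.36 ± 0.18, or 2.57-fold. Both transcripts are very long, 15938 and 22457 exonic bases, so their length-corrected levels, 7.58 and 6.22, were far below what the deposited values show.

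For the pairs, 11 of which are described here, the length-corrected differences over the 5 tumours were tested by exact permutation of their signs, two-sided. The first gene was higher in 5 of 5 tumours for 10 of the 11 pairs and lower in 5 of 5 for Rims1 and Rims2. Each of the 11 gave an exact permutation p = 0.0625 (0.0625 after Benjamini-Hochberg adjustment over the 13 pairs tested), the smallest that 5 tumours allow, so no pair could pass 0.05.

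**Figure D5:**
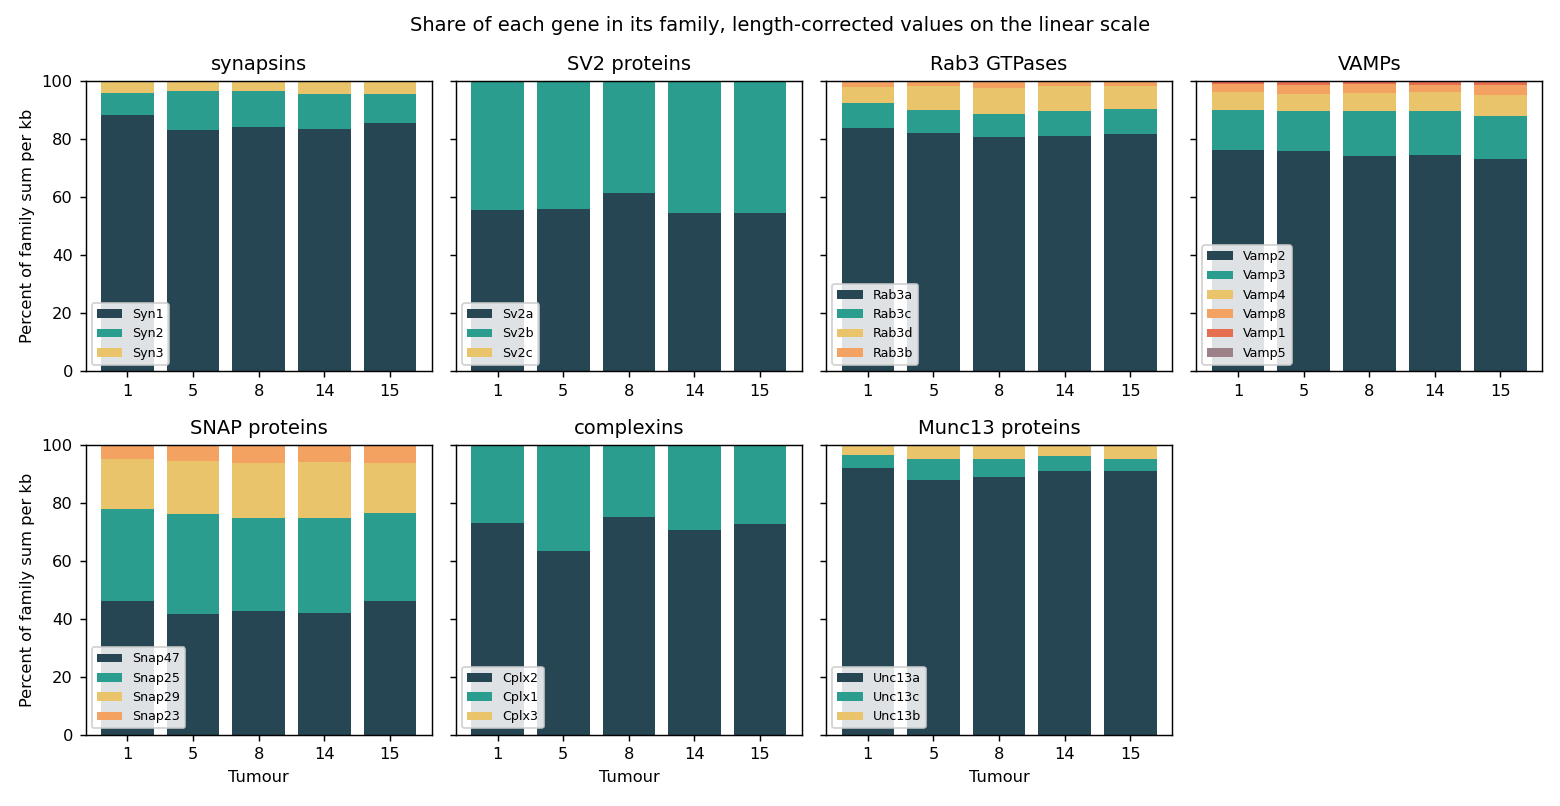
Percent of each family's summed length-corrected level on the linear scale (vertical axis) held by each gene in each tumour (horizontal axis), for 7 families. Vamp2, Rab3a, Syn1 and Unc13a each hold most of their family in every tumour, Snap47 and Snap25 share theirs, and the Sv2a and Sv2b order depends on the length used; Cplx2 is at its smallest share in tumour 5.

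Other genes of the vesicle cycle were examined as a list of 36, all in the table and 35 of them with a mean of at least 5. The list was put together with earlier results of these data known. Of these 35, 6 (17.1%) ranged over 2-fold, beside 3.79% of all genes. Without tumour 1 only 1 did (2.86%), beside 2.88% of all genes. Without tumour 5 it was also 1 (2.86%), beside 1.81%. The 35 were highest in tumour 5 for 18 genes and in tumour 1 for 13, beside 24.1% and 20.2% of all genes. Slc17a7, the glutamate transporter VGLUT1 of mature granule cell vesicles, had 7.94, 9.21, 8.52, 8.65 and 7.91, a span of 2.45-fold with tumour 5 highest. Slc17a6, VGLUT2, the form used early by granule neurons, averaged 10.25 ± 0.34 and was lowest in tumour 15. Slc32a1, the transporter of inhibitory transmitters, averaged 4.95 ± 0.15, the lowest of the list.

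The genes past 2-fold fell in opposed sets. Cadps2, a priming factor of granule cells, had 9.71, 10.82, 10.16, 10.45 and 10.21. It was highest in tumour 5 and lowest in tumour 1, as were Syn2 and Synpr among the members. Rimbp2, a RIM-binding protein, had 8.53, 6.93, 7.71, 7.18 and 7.53, Slc18a2, the vesicular monoamine transporter, 9.62, 8.50, 9.11, 8.84 and 9.37, and Doc2b, a calcium sensor for spontaneous release, 11.08, 10.08, 10.16, 10.30 and 11.002. These 3 were highest in tumour 1 and lowest in tumour 5, spanning 3.02-fold, 2.17-fold and 2-fold. The clathrin light chain gene Cltb (13.04 ± 0.43) and the adaptor gene Bin1 (12.47 ± 0.17) had the highest deposited means of the list. The core recycling genes Nsf and Napa, which take spent SNARE complexes apart, spanned 1.17-fold and 1.08-fold.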

How the data were processed

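RNA of 5 tumours was sequenced from strand-specific mRNA libraries, per the labels' protocols. The deposited values are on a log2 scale, 1 per gene and tumour, and are read as regularised-log values. The submitters' processing notes name STAR 2.4.1, featureCounts from Subread 1.4.6, DESeq2, mm10 and GRCm38. How genes were annotated and filtered, which strand was counted and which tool version made the log values is not given in the sources used here. Of 7 columns, 2 match no sample in the labels and were not used. Depth is unknown, so no counting interval is given.

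Members were selected by symbol. Members, lists, pairs and counts were chosen with earlier results of these data known. Genes with a mean of at least 5 entered the counts. The range is the highest minus the lowest of 5 tumours. Exon lengths came from GENCODE M21 on GRCm38: 97.5% of symbols, and all 74 members, matched 1 gene. For 19 members, exons overlap a gene on the opposite strand. Values in every tumour were given for the pair genes, for members ranging over 2-fold, and for the highest and lowest member of each role; those past 1.5-fold were added after their values were seen. The rule for the other vesicle cycle genes (those past 2-fold, the 2 highest and the lowest by mean) was kept. Some genes that these rules name are not reported here, though the counts include them. Scripts ran in Python 3.11.15 with pandas 2.3.3, numpy 2.4.6 and scipy 1.17.1.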

Additional observations from a re-analysis of the deposited data

Results flagged for a closer look

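For 2 of the 65 members with a mean of at least 5 (3.08%), a single tumour lay far from the other 4 (gap over range above 0.71, Dixon's criterion for 5 values). Chance flags about 5% of such groups, and 5.57% of all 13691 genes were flagged. Unc13c, encoding Munc13-3, was 7.69 in tumour 5, with the nearest of the others at 7.001. Syt16, a synaptotagmin without calcium binding, was 7.34 in tumour 5, with the nearest of the others at 7.68. The tumour with the outlying value was thus the same for both genes, in opposite directions.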

How the results depend on the processing

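The count of members ranging over 2-fold was 0 without a filter, with a mean of at least 7, with columns centred or quantile-normalised, without any tumour in turn (lowest 0, highest 0), and by an SD above 0.4. At a threshold of 1.5-fold it was 12. Without a tumour, members past 1.5-fold numbered 4 to 12 (6.15% to 18.5%), beside 8.86% to 13.7% of all genes. Members highest in tumour 5 numbered 27 to 30 under the filters and scalings, beside 22.2% to 25.3% of all genes. Without another tumour they numbered 28 to 35 (43.1% to 53.8%), beside 27% to 29%. Members highest in tumour 1 numbered 19 to 27 (28.4% to 41.5%), beside 19.1% to 28.1% of all genes. Those lowest in tumour 8 numbered 22 to 31 (33.8% to 47.7%), beside 22.2% to 29.4%. Those lowest in tumour 1 numbered 15 to 21. Their share came closest to that of all genes without tumour 5, at 24.6% beside 22.1%. Without tumour 15 it was 32.3% beside 25.5%. For each of these counts the members' share exceeded that of all genes in every setting. Other vesicle cycle genes past 2-fold numbered 5 or 6 under the scalings and 1 to 6 without a tumour. The latter were 2.86% to 17.1%, beside 1.81% to 3.66% of all genes. Those highest in tumour 5 numbered 17 to 23 (48.6% to 65.7%), beside 23.3% to 29% of all genes. The alternatives for 1.5-fold, tumours 1 and 8, and the other vesicle cycle genes were chosen after seeing the data. The 11 pairs described kept 1 sign in every tumour with no length subtracted and without any tumour in turn, and 10 did with the longest transcript. Sv2a minus Sv2b turned round, to -0.47 with no length subtracted and -0.12 with the longest transcript. No paired analysis was possible because the labels give 1 group. The regularised log understates differences at weakly expressed members, and library depth is unknown.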
